A study of Homo sapiens with 10 samples.

Results

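The genes described here encode the matrix metalloproteinases (MMP), the ADAM and ADAMTS proteases and the tissue inhibitors of metalloproteinases (TIMP). They were chosen by a symbol rule, as the genes of the deposited count table named MMP, ADAM, ADAMTS or TIMP followed by a number. No measured value is part of this rule, but earlier results of these data were known when genes and lists were chosen. The rule matched 67 of 23228 genes, with 22 MMP, 22 ADAM, 19 ADAMTS and 4 TIMP genes. RNA was sequenced from cells labelled RD, a human cell line established from a rhabdomyosarcoma, a soft tissue tumour with features of skeletal muscle. One arm of the study transfected RD cells with 10 nM of a nonspecific siRNA, of NRAS siRNA 1 or of NRAS siRNA 2 and took RNA after 48 h. The other arm gave 300 nM SCH772984, an inhibitor of the kinases ERK1 and ERK2, or its solvent DMSO and took RNA after 24 h. NRAS encodes a small GTPase that acts upstream of ERK, so both arms address the same signalling route from different ends. All 5 groups were grown in RPMI medium with serum, each held 2 libraries, and 1 cell line stood for the tumour.

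These proteases belong to the metzincins, enzymes that hold a catalytic zinc ion between 3 histidines. MMPs cleave collagens, gelatins, laminins and other matrix proteins, and most are secreted as inactive precursors, whereas the membrane-type MMPs stay at the cell surface. ADAM proteases are membrane proteins, and those with an intact zinc site shed growth factors, cytokines and receptors from the surface. ADAMTS proteases are secreted, bind the matrix and cut proteoglycans, procollagens, von Willebrand factor or microfibril components. TIMPs are small secreted proteins that block the zinc site of these enzymes with different preferences. In many cell types ERK signalling raises the transcription of MMP genes through AP-1 and ETS transcription factors.

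The zinc site itself divides the genes, and it is shown for the genes whose changes are described further on. A search of GENCODE v29 coding sequences (GRCh38) looked for a histidine, a glutamate, any pair of residues, a histidine, any 5 residues and a histidine. A coding transcript was matched for 65 of the 67 genes, and 53 of these held the site. It was present in 22 of 22 MMPs, 19 of 19 ADAMTS genes and 12 of 20 ADAMs, and in 0 of 4 TIMPs. The ADAMs without it were ADAM2, ADAM7, ADAM11, ADAM18, ADAM22, ADAM23, ADAM29 and ADAM32. Each site below is read 5′ to 3′ on the coding strand, with the 3 histidine codons in capitals. Where 2 exons are named, the coordinates include the intron between them.
MMP1 (chr11:102795549-102795581, minus strand, exon 5): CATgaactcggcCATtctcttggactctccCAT
MMP2 (chr16:55491827-55491859, plus strand, exon 8): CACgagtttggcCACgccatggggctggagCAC
MMP12 (chr11:102868011-102868043, minus strand, exon 5): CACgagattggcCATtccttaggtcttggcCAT
MMP28 (chr17:35770167-35770199, minus strand, exon 5): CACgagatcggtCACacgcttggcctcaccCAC
ADAMTS9 (chr3:64651148-64654369, minus strand, exons 8 and 9): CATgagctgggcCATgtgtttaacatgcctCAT
ADAMTS4 (chr1:161195613-161196180, minus strand, exons 3 and 4): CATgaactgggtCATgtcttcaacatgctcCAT
ADAMTS10 (chr19:8596204-8596323, minus strand, exons 9 and 10): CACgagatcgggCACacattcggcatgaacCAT
ADAMTS2 (chr5:179154177-179154830, minus strand, exons 7 and 8): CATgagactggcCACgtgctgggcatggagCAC
ADAM12 (chr10:126094059-126094091, minus strand, exon 11): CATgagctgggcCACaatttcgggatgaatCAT
ADAM19 (chr5:157505734-157505766, minus strand, exon 11): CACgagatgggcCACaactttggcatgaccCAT
The eighth codon of the site encoded glycine in 48 of the 53 genes. The 5 exceptions were all ADAMTS genes, namely ADAMTS1, ADAMTS4, ADAMTS8, ADAMTS9 and ADAMTS15, which are listed among the proteoglycan-cleaving members.

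Libraries held 23224063 to 30768970 counts assigned to genes. NRAS, the targeted gene, was at 220 and 272 CPM (counts per 1000000 assigned reads, with library sizes scaled by TMM factors) with the nonspecific siRNA. It was at 52.4 and 52.2 CPM with siRNA 1 and at 51.0 and 48.0 CPM with siRNA 2, below both control libraries. With DMSO it was at 269 and 282 CPM and with the ERK inhibitor at 235 and 279 CPM. Of 10 muscle markers, 5 reached 1 CPM in a library. Desmin (DES) had 520 to 928 counts and PAX3 258 to 393. However, the myogenic regulators that mark rhabdomyosarcoma were nearly silent, with MYOD1 at 0 to 5 counts, MYOG at 0 to 3 and MYF5 at 0. The name RD comes from the labels, and the identity of the cells was not tested. Summed over the list, muscle markers stood at 66.8 to 88.3 CPM in the siRNA and DMSO libraries and at 98.1 and 104 CPM with the ERK inhibitor. Single muscle markers went in opposite directions. CDH15 had 10 and 12 counts with DMSO and 176 and 114 with the inhibitor, whereas CHRNA1 had 17 and 14 against 1 and 2. Of 9 leukocyte markers 2 reached 1 CPM, CD68 and CD14, and PTPRC had 1 to 5 counts. Their sum was 6.56 and 7.36 CPM with DMSO and 4.64 and 4.81 CPM with the inhibitor, and 7.85 and 8.53 CPM with the nonspecific siRNA against 4.47 to 6.42 CPM with the NRAS siRNAs. Of 9 markers of endothelium and epithelium 3 reached 1 CPM, KRT8, KRT18 and EPCAM, and their sum ranged from 117 to 366 CPM. The part of these markers in the results was not tested. In bulk RNA, fewer cells of a kind and less RNA per cell cannot be told apart.

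Of the 67 genes, 49 had enough counts to be tested, namely 15 MMPs, 14 ADAMs, 17 ADAMTS genes and 3 TIMPs. The 18 others were ADAM2, ADAM6, ADAM7, ADAM18, ADAM20, ADAM28, ADAM29, ADAM30, ADAMTS8, ADAMTS18, MMP8, MMP13, MMP20, MMP21, MMP25, MMP26, MMP27 and TIMP4. ADAM6 had 0 counts in every library, and the highest single count among the 18 was 22, for MMP25 in replicate 2 of the nonspecific siRNA. The collagenases MMP8 and MMP13 reached at most 4 and 9 counts. TIMP4 reached 4, so 3 of the 4 TIMPs carried nearly all inhibitor transcripts. The limit that a count of 0 allows, 3 counts, lay between 0.0952 and 0.132 CPM over the libraries, counting error only.

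Levels between genes were compared as CPM per kb of exon, averaged over the 10 libraries, for the 66 genes with a length. TIMP2 was highest at 138 CPM per kb, followed by the sheddase ADAM9 at 91.7, TIMP1 at 76.7, the gelatinase MMP2 at 61.9 and the membrane-type MMP14 at 59.4. MMP2 and MMP14 are known partners, since MMP14 activates the MMP2 precursor in a complex that includes TIMP2. Further down came the proteoglycanase ADAMTS1 at 38.8 CPM per kb, the sheddase ADAM17 at 30.6, TIMP3 at 23.4, ADAM15 at 21.2 and MMP11 at 16.4. The order depended on the group. With DMSO MMP2 at 53.1 and MMP14 at 52.1 CPM per kb could not be ordered beyond the spread of their libraries, whereas with the ERK inhibitor MMP2 stood at 102 and MMP14 at 60.2. TIMP2 and TIMP1 stood at 114 and 96.8 CPM per kb with DMSO and at 156 and 54.8 with the inhibitor. MMP2 alone made up 42.3 and 44.6% of the summed MMP level with DMSO and 48.4 and 51.8% with the inhibitor.

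**Figure D1:**
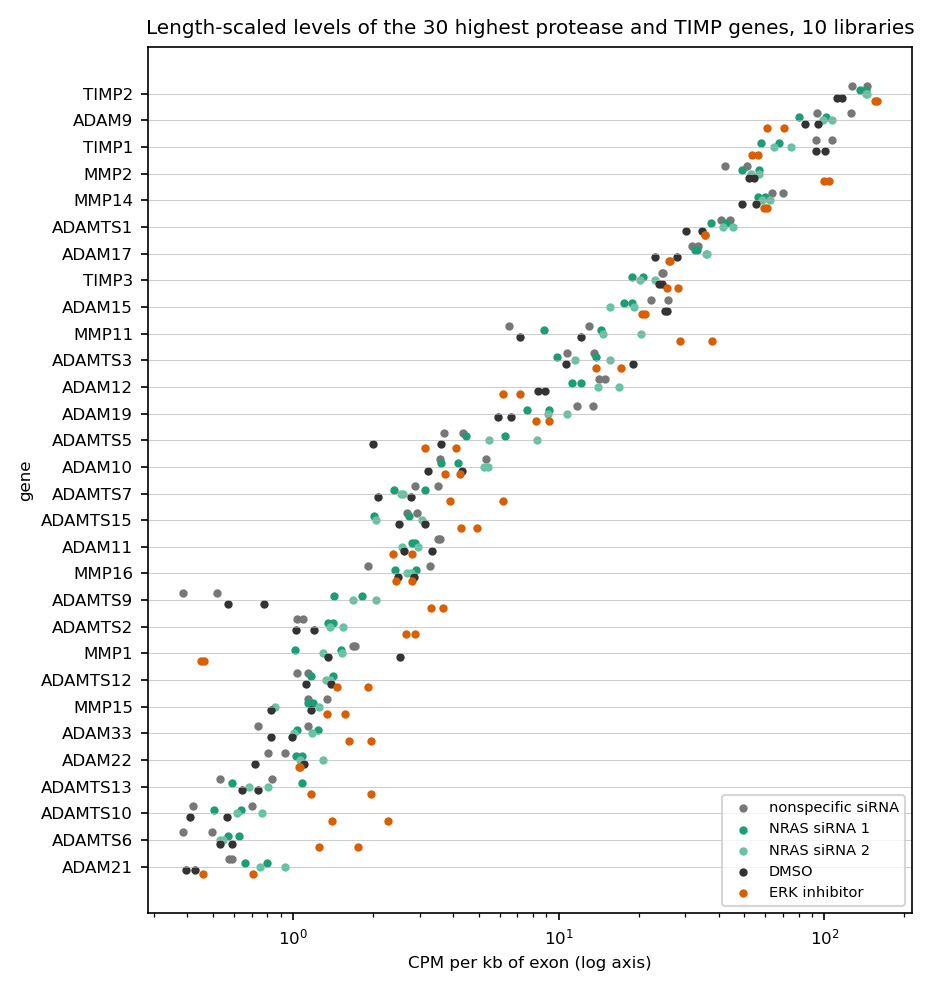
Length-scaled level of the 30 highest genes of the families (horizontal log axis, CPM per kb of exon, genes in order of their mean), 1 point per library and 5 groups by colour. TIMP2, ADAM9, TIMP1, MMP2 and MMP14 lead, and the ERK inhibitor libraries lie to the right for MMP2, MMP11, ADAMTS2, ADAMTS6, ADAMTS9 and ADAMTS10 but to the left for MMP1 and TIMP1.

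Summed over each family, the MMP level was 128 and 116 CPM per kb with DMSO and 207 and 200 with the ERK inhibitor. The ADAM sum was 173 and 157 CPM per kb with DMSO and 133 and 144 with the inhibitor. The ADAMTS sum was 68.4 and 53.5 with DMSO against 81.5 and 74.8 with the inhibitor. The inhibitor libraries thus lay above both DMSO libraries for MMP and ADAMTS sums and below both for the ADAM sum. A large part of the ADAM sum was ADAM9, with 54.6 and 53.9% of it with DMSO and 45.6 and 48.6% with the inhibitor. ADAM9 alone stood at 94.4 and 84.7 CPM per kb with DMSO and 60.7 and 70.2 with the inhibitor. The TIMP sum was 234 and 236 CPM per kb with DMSO and 237 and 239 with the inhibitor, a small difference beside that of its parts. TIMP2 made up 49.8 and 47.3% of it with DMSO and 66.7 and 64.7% with the inhibitor. With siRNAs the MMP sums overlapped, at 140 and 121 CPM per kb for the nonspecific siRNA, 137 and 121 for siRNA 1 and 141 and 137 for siRNA 2. The TIMP sum was 276 and 245 with the nonspecific siRNA, 220 and 224 with siRNA 1 and 229 and 243 with siRNA 2, lower in all 4 NRAS siRNA libraries.

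**Figure D2:**
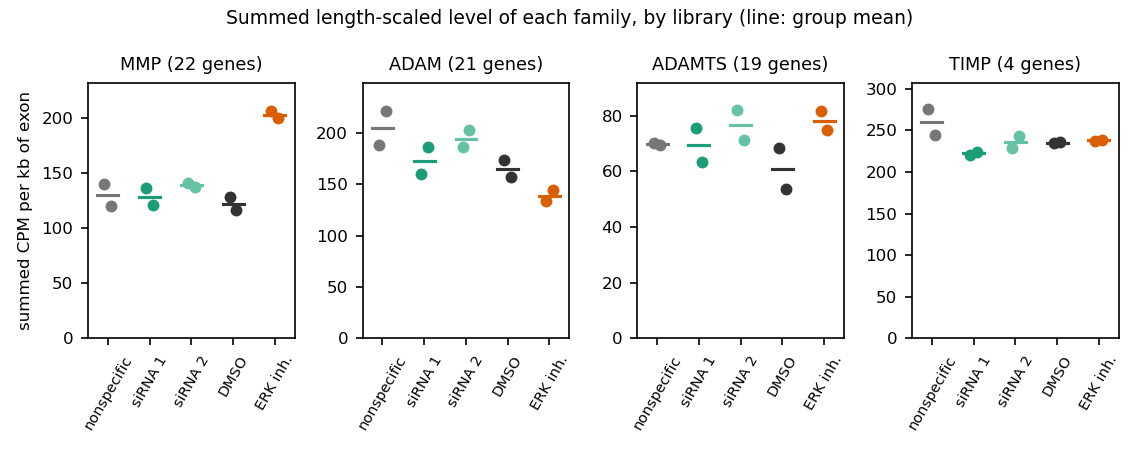
Summed length-scaled level of the MMP (22 genes), ADAM (21 with a length), ADAMTS (19) and TIMP (4) families in CPM per kb of exon (vertical axis from 0), 1 point per library with the group mean as a line. The MMP sum separates the ERK inhibitor libraries, at 207 and 200, from the 8 others, while the TIMP sum with the inhibitor, at 237 and 239, lies close to DMSO.

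The ERK inhibitor changed 18 of the 49 tested genes against DMSO (edgeR's quasi-likelihood test, Benjamini-Hochberg adjusted p below 0.05 over 14761 genes), 36.7% of them, beside 28.0% of all genes tested. By direction, 15 rose (30.6%, beside 13.2% of all genes) and 3 fell (6.12%, beside 14.8% of all genes). The median log2 fold change of the 49 was 0.35, and that of all tested genes was 0.00. By family, 8 of 17 ADAMTS genes rose and 0 fell, 4 of 15 MMPs rose and 1 fell, 2 of 14 ADAMs rose and 1 fell, and 1 of 3 TIMPs rose and 1 fell. At an unadjusted p below 0.05 there were 28 genes, 21 of them higher. The count of 18 fell without DMSO replicate 2 or ERK inhibitor replicate 1, and so did the count over all genes tested. Passing in all 10 fits that left out 1 library were MMP1, MMP2, MMP12, ADAMTS2, ADAMTS6, ADAMTS9, ADAMTS10, TIMP1 and TIMP2. With upper-quartile scaling the calls over all genes were 2210 higher and 1725 lower in place of 1948 and 2180, and those among the proteases and TIMPs 16 higher and 2 lower. The labels do not say whether the libraries of a group are separate cultures, and the p-values rest on the spread between libraries, which may be technical.

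**Figure D3:**
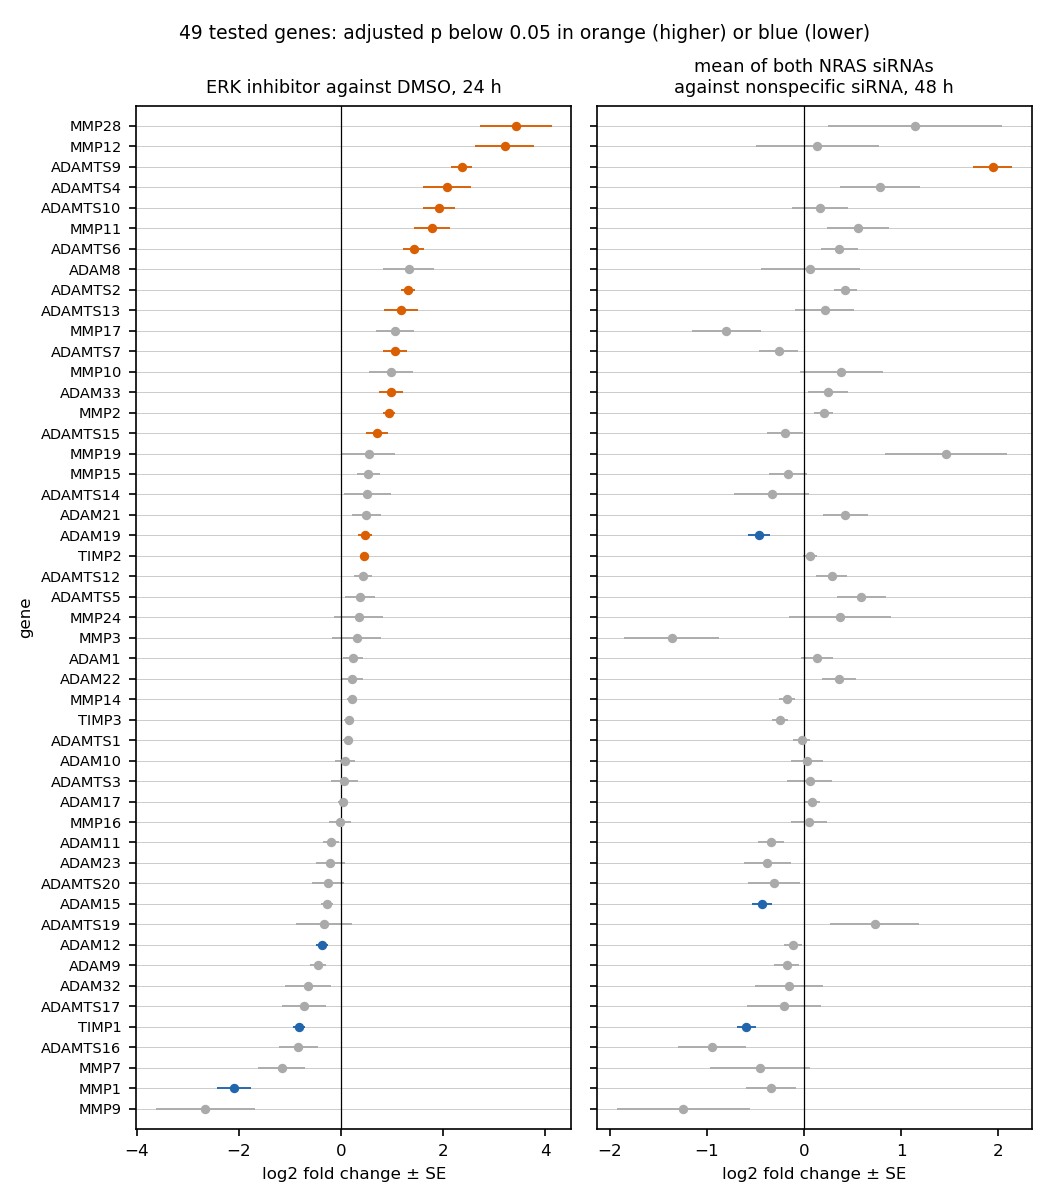
Log2 fold change with its standard error (derived from edgeR's F statistic) for the 49 tested genes, ordered by the ERK inhibitor response. The inhibitor against DMSO is on the left and the mean of both NRAS siRNAs against the nonspecific siRNA on the right. The axes differ in range. Orange and blue mark the 15 genes that rose and the 3 that fell with the inhibitor, and the 1 that rose and the 3 that fell with the siRNAs.

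Secreted MMPs moved in both directions with the ERK inhibitor. MMP1, the interstitial collagenase that cuts fibrillar collagen, had 61 and 131 counts with DMSO and 24 and 26 with the inhibitor, or 2.68 and 4.97 against 0.913 and 0.887 CPM. Both inhibitor libraries lay below all 8 others, whose lowest was 2.01 CPM. Its log2 fold change was -2.09 (SE 0.34, edgeR adjusted p = 0.00166). MMP1 was the only collagenase tested. MMP2, the gelatinase that also cuts type IV collagen, stood at 257 and 246 CPM with DMSO and rose to 474 and 492 CPM. The inhibitor libraries lay far above the 8 others, which ranged from 201 to 269 CPM. The log2 fold change was 0.94 (SE 0.11, edgeR adjusted p = 0.000261) and held between 0.91 and 0.97 when any 1 library was left out. The other gelatinase, MMP9, had 5 and 13 counts with DMSO and 2 and 1 with the inhibitor. The ratio of its summed counts was 0.147 (exact 95% interval 0.0278 to 0.504, counting error only), and with edgeR adjusted p = 0.0655 the difference did not pass.

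Low-count MMPs gave the greatest rises. MMP12, a macrophage elastase by its common name, had 4 and 3 counts with DMSO and 24 and 52 with the inhibitor, above all other libraries, which had 3 to 12. Its summed counts, 76 against 7, gave a ratio of 9.58 (exact 95% interval 4.43 to 24.6), and edgeR's log2 fold change was 3.20 (SE 0.57, adjusted p = 0.00297). MMP28, also called epilysin, had 3 and 2 counts with DMSO and 35 and 28 with the inhibitor, while siRNA libraries had 1 to 9. The ratio of summed counts, 63 against 5, was 11.1 (exact 95% interval 4.52 to 35.4), and edgeR's log2 fold change was 3.42 (SE 0.70, adjusted p = 0.00585). These intervals cover counting error only. MMP11, or stromelysin-3, was far more abundant at 27.8 and 16.5 CPM with DMSO and 86.3 and 65.8 CPM with the inhibitor. No DMSO library reached the inhibitor libraries, and MMP11 had a log2 fold change of 1.78 (SE 0.36, edgeR adjusted p = 0.00541). Without DMSO replicate 2, MMP11 and MMP28 no longer passed, at 1.48 and 3.09 (edgeR adjusted p = 0.0567 and 0.0652).

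None of the other stromelysins, matrilysins and membrane-type MMPs passed. MMP14, which cuts collagen at the cell surface, stood at 206 and 182 CPM with DMSO and 227 and 222 CPM with the inhibitor, higher in both but within the range of the siRNA libraries (210 to 260 CPM). Its log2 fold change was 0.21 (SE 0.09, edgeR adjusted p = 0.122). All 5 tested membrane-type MMPs lay between -0.02 and 1.06, the latter for MMP17 (edgeR adjusted p = 0.0547). Stromelysins MMP3 and MMP10 were at 0.31 and 0.99, and the matrilysin MMP7 at -1.16, with at most 33 counts per library.

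ADAMTS genes were the family with the most rises. ADAMTS9, which cleaves the proteoglycans aggrecan and versican, stood at 4.97 and 6.79 CPM with DMSO and rose to 32.1 and 28.7 CPM. Both values exceeded those of all other libraries. The log2 fold change was 2.36 (SE 0.21, edgeR adjusted p = 5.04e-05), and 2.16 to 2.64 with any 1 library left out. ADAMTS4, an aggrecanase, had 17 and 8 counts with DMSO and 67 and 53 with the inhibitor, and the ratio of summed counts was 4.24 (exact 95% interval 2.74 to 6.81, edgeR log2 fold change 2.07, SE 0.47, adjusted p = 0.00969). ADAMTS15, a versican-cleaving member, rose from 14.2 and 17.9 to 24.4 and 28.0 CPM, a log2 fold change of 0.70 (SE 0.21, edgeR adjusted p = 0.0324). ADAMTS1, the most abundant ADAMTS gene, was at 180 and 156 CPM with DMSO and 185 and 184 CPM with the inhibitor. It did not pass, at 0.14 (SE 0.10, edgeR adjusted p = 0.346). Of the 6 tested proteoglycan-cleaving members 3 therefore rose, and the others, ADAMTS1, ADAMTS5 and ADAMTS20, lay between -0.25 and 0.37.

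Some members that act on fibrous matrix rose as well. ADAMTS2, which trims the amino ends of fibrillar procollagens, stood at 10.3 and 8.77 CPM with DMSO and 24.8 and 22.8 CPM with the inhibitor, above every other library. Its log2 fold change was 1.32 (SE 0.14, edgeR adjusted p = 0.000131). The related procollagen proteases ADAMTS3 and ADAMTS14 did not pass, at 0.06 and 0.51. ADAMTS10 and ADAMTS6, which are among the members known for roles in fibrillin microfibrils, both rose. ADAMTS10 was at 2.46 and 1.78 CPM with DMSO and 9.93 and 6.11 CPM with the inhibitor (log2 fold change 1.92, SE 0.32, edgeR adjusted p = 0.00195). ADAMTS6 was at 4.31 and 3.91 CPM with DMSO and 12.9 and 9.21 CPM with the inhibitor (1.42, SE 0.20, edgeR adjusted p = 0.000893). In both genes the inhibitor libraries lay above the 8 others.

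ADAMTS7, which cleaves cartilage oligomeric matrix protein, rose from 15.3 and 11.5 to 34.1 and 21.5 CPM (log2 fold change 1.05, SE 0.23, edgeR adjusted p = 0.00869). The ADAMTS7 value is uncertain because this gene has close genomic copies and multiply aligned reads are not in the counts. ADAMTS13, the protease of von Willebrand factor, rose from 3.92 and 3.42 to 10.4 and 6.21 CPM (1.18, SE 0.34, edgeR adjusted p = 0.0263). ADAMTS12, ADAMTS16, ADAMTS17 and ADAMTS19 did not pass, at -0.83 to 0.43. Several ADAMTS calls did not hold in every fit with 1 library left out, though their log2 fold changes stayed positive. ADAMTS4 and ADAMTS7 did not pass without DMSO replicate 2, at 1.56 and 0.89, or without ERK inhibitor replicate 1, at 1.80 and 0.68. ADAMTS13 did not pass without DMSO replicate 1, DMSO replicate 2 or ERK inhibitor replicate 1, at 1.28, 1.11 and 0.76. ADAMTS15 did not pass without any 1 of the 4 libraries compared (0.55 to 0.91). ADAMTS2, ADAMTS6, ADAMTS9 and ADAMTS10 passed in all 10 such fits.

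The 14 tested ADAM genes lay between -0.64 and 1.32 on the log2 scale with the ERK inhibitor. The upper end was ADAM8, a membrane protease best known from leukocytes, with 10 and 5 counts with DMSO and 24 and 19 with the inhibitor, and it did not pass (SE 0.51, edgeR adjusted p = 0.0774). Of 9 tested ADAMs with a zinc site 2 rose and 1 fell, and of 4 without it (ADAM11, ADAM22, ADAM23 and ADAM32) 0 passed, with log2 fold changes from -0.64 to 0.22. Beside the 28.0% of all genes that passed, counts this small cannot tell ADAMs with and without the site apart. ADAM1, for which no coding transcript was matched, did not pass either, at 0.24. ADAM10 and ADAM17, the main sheddases of Notch and of tumour necrosis factor and EGF receptor ligands, were at 0.08 (SE 0.19) and 0.04 (SE 0.10). The 95% interval of the ADAM17 difference was -0.18 to 0.26 and that of ADAM10 -0.34 to 0.51. ADAM17 stood at 123 and 101 CPM with DMSO and 114 and 116 CPM with the inhibitor, and ADAM10 at 57.0 and 42.2 against 49.0 and 55.9 CPM, so the groups overlapped in both. ADAM17 shares 1257 exon bases with IAH1 on the opposite strand (GENCODE v29), and the strand setting of the counting is not given in the sources used here. IAH1 had 677 to 1219 counts and a log2 fold change of 0.00.

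ADAM33, a membrane protease with a zinc site, rose from 4.09 and 3.42 to 8.14 and 6.69 CPM (log2 fold change 0.98, SE 0.23, edgeR adjusted p = 0.0115). ADAM19, which is known to shed neuregulin, rose from 41.5 and 46.7 to 57.8 and 64.7 CPM (0.47, SE 0.13, edgeR adjusted p = 0.0264). ADAM12, a sheddase studied in muscle fusion, fell from 78.4 and 74.2 to 54.6 and 63.2 CPM (-0.37, SE 0.11, edgeR adjusted p = 0.0353). For each of these 3 genes the libraries of both groups did not overlap. Not one of the 3 calls held in every fit with 1 library left out. ADAM33 did not pass without DMSO replicate 2 (0.88) or ERK inhibitor replicate 1 (0.84), ADAM19 without any 1 of the 4 libraries compared (0.39 to 0.59), and ADAM12 without DMSO replicate 1 (-0.33), DMSO replicate 2 (-0.39) or ERK inhibitor replicate 1 (-0.27). With upper-quartile scaling ADAM12 did not pass either, at -0.32 (edgeR adjusted p = 0.0577). ADAM9, the most abundant ADAM, was at 560 and 502 CPM with DMSO and 360 and 416 CPM with the inhibitor, just outside the threshold at -0.45 (SE 0.15, edgeR adjusted p = 0.0503). It passed with RLE size factors (adjusted p = 0.0499), DESeq2 (0.0283), no filter on low counts (0.00995) and a fit of only the groups compared (0.0146).

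The TIMPs went in opposite directions. TIMP1, a secreted inhibitor of most MMPs, stood at 136 and 147 CPM with DMSO and fell to 78.0 and 81.9 CPM. The inhibitor libraries were the lowest of all 10. The log2 fold change was -0.82 (SE 0.12, edgeR adjusted p = 0.000874), and -0.88 to -0.74 with any 1 library left out. TIMP2, which both inhibits MMP2 and takes part in its activation by MMP14, rose from 476 and 455 to 644 and 629 CPM. These values lay above the 8 others, and the log2 fold change was 0.45 (SE 0.08, edgeR adjusted p = 0.00362). TIMP3, which binds to the matrix and blocks ADAM17 and the aggrecanases, was at 113 and 110 CPM with DMSO and 118 and 130 CPM with the inhibitor. It did not pass, at 0.15 (SE 0.10, edgeR adjusted p = 0.277, 95% interval -0.07 to 0.37). TIMP1 and TIMP3 lie within introns of SYN1 and SYN3 on the opposite strand and share 0 exon bases with them.

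**Figure D4:**
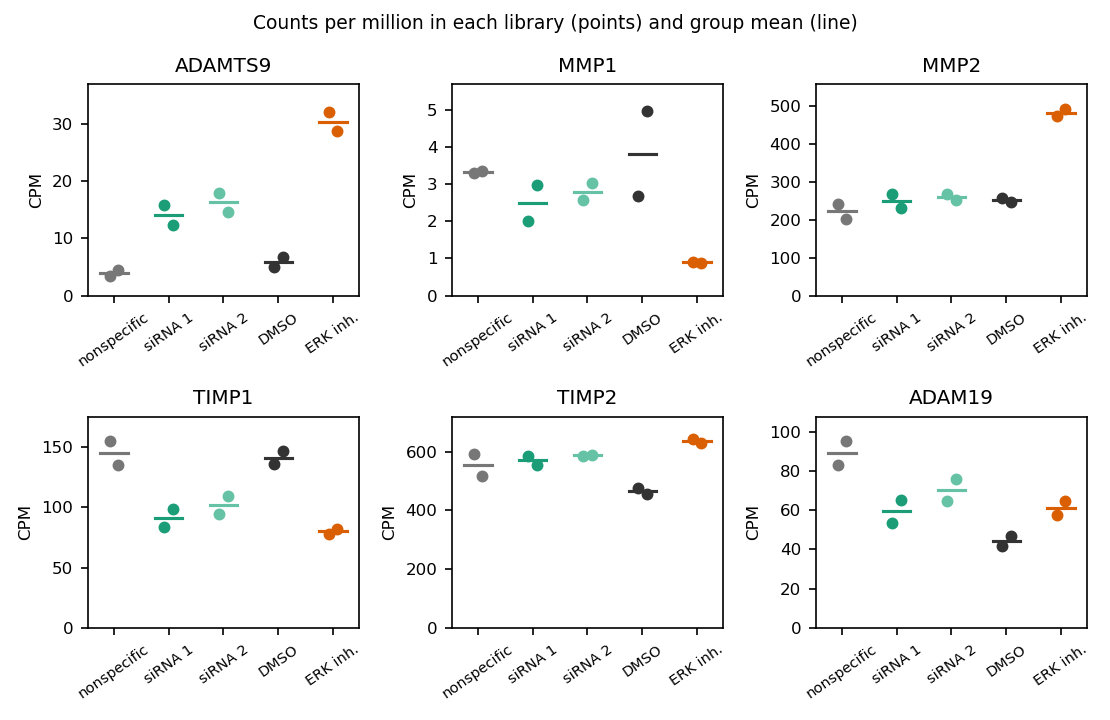
CPM (vertical axes from 0) of ADAMTS9, MMP1, MMP2, TIMP1, TIMP2 and ADAM19 in each library (points, 2 per group) with the group mean as a line. ADAMTS9 is higher and TIMP1 lower in both arms, and MMP1, MMP2 and TIMP2 show a wider gap to the control with the ERK inhibitor than with the siRNAs.

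NRAS knockdown changed fewer of these genes. Averaged over both siRNAs, 4 of 49 passed (8.16%, beside 7.95% of all genes), 1 higher (2.04%, beside 2.97%) and 3 lower (6.12%, beside 4.99%). These shares are close to those of all genes. The median log2 fold change was 0.05, and -0.01 over all tested genes. Taken singly, siRNA 1 changed 2 genes, 4.08% beside 2.07% of all genes, and siRNA 2 changed 3 genes, 6.12% beside 6.43% of all genes. Both siRNA comparisons share the nonspecific siRNA libraries. The count for the mean of both was 1 without replicate 1 of the nonspecific siRNA, and 2 without its replicate 2, without replicate 1 of either NRAS siRNA or without DMSO replicate 2. For siRNA 1 it was 1 without replicate 1 of the nonspecific siRNA or of siRNA 1, and for siRNA 2 it was 1 without replicate 1 of the nonspecific siRNA or of siRNA 2 or without either ERK inhibitor library. Of the 15 tested MMPs 0 passed with the mean of both siRNAs in edgeR without a replicate block, and 0 with DESeq2. An unadjusted p below 0.05 was found for 3 of them, MMP3, MMP17 and MMP19. MMP3 had the lowest, 0.0194, at -1.36 (34 counts over both control libraries, 16 with siRNA 1 and 14 with siRNA 2). MMP1, at 3.31 and 3.37 CPM in controls, was lower in all 4 NRAS siRNA libraries (2.01 to 3.03 CPM) but did not pass, at -0.34 (SE 0.26, edgeR adjusted p = 0.436). MMP2, at 243 and 201 CPM in controls and 232 to 269 CPM in the 4 others, was at 0.20 (SE 0.09, edgeR adjusted p = 0.206).

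ADAMTS9 rose with both siRNAs. It stood at 3.35 and 4.52 CPM with the nonspecific siRNA, 15.9 and 12.4 CPM with siRNA 1 and 17.9 and 14.7 CPM with siRNA 2. All 4 NRAS siRNA libraries lay above both controls and below both ERK inhibitor libraries. Its log2 fold change was 1.84 (SE 0.22, edgeR adjusted p = 0.00405) with siRNA 1, 2.04 (SE 0.22, adjusted p = 0.00176) with siRNA 2 and 1.94 (SE 0.20, adjusted p = 0.00142) on average. It was the only one of the 4 calls to pass in all 10 fits with 1 library left out, at 1.77 to 2.18. The other proteoglycan-cleaving members did not pass, and ADAMTS2, the procollagen protease, stood just outside at 0.42 (SE 0.12, edgeR adjusted p = 0.0578), with 8.88 and 9.31 CPM in control libraries and 11.6 to 13.2 CPM in the 4 others. With DESeq2 it passed (0.44, adjusted p = 0.0323).

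TIMP1 fell from 155 and 135 CPM with the nonspecific siRNA to 84.0 and 98.3 CPM with siRNA 1 and 94.4 and 109 CPM with siRNA 2. No NRAS siRNA library reached a control library. The mean log2 fold change was -0.59 (SE 0.10, edgeR adjusted p = 0.00992), with -0.67 for siRNA 1 and -0.51 for siRNA 2 (adjusted p = 0.0194 and 0.0319). Without replicate 1 of the nonspecific siRNA, TIMP1 was at -0.47 and did not pass (edgeR adjusted p = 0.0888). In a fit of only the groups compared, the calls for siRNA 1 and siRNA 2 singly were lost (edgeR adjusted p = 0.0978 and 0.0969). TIMP2 was at 591 and 518 CPM with the nonspecific siRNA and 555 to 590 CPM in the 4 others, at 0.06 (SE 0.08). TIMP3 was at 113 and 114 CPM against 87.2 to 106 CPM, lower in all 4 but not past the threshold at -0.25 (SE 0.08, edgeR adjusted p = 0.0969).

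Among the ADAMs, ADAM15 and ADAM19 fell on average over both siRNAs. ADAM15, a membrane protease with an integrin-binding domain, was at 84.1 and 72.9 CPM with the nonspecific siRNA, 57.5 and 62.0 CPM with siRNA 1 and 51.0 and 62.5 CPM with siRNA 2. ADAM19 was at 82.8 and 95.1 CPM with the nonspecific siRNA, 53.6 and 65.0 CPM with siRNA 1 and 64.6 and 75.9 CPM with siRNA 2. In neither gene did the groups overlap. The log2 fold changes were -0.43 (SE 0.10) and -0.46 (SE 0.11), with edgeR adjusted p = 0.0308 and 0.0376. ADAM15 did not pass in 5 of 10 fits with 1 library left out (without either nonspecific siRNA library, replicate 1 of siRNA 1 or of siRNA 2, or DMSO replicate 2, at -0.53 to -0.30). ADAM19 did not pass in 7 (those without either nonspecific siRNA library, replicate 1 of siRNA 1 or of siRNA 2, DMSO replicate 2 or either ERK inhibitor library, at -0.54 to -0.36). Both calls were also lost in a fit of only the groups compared (edgeR adjusted p = 0.0880 and 0.0842). ADAM10, ADAM17 and ADAM9 were at 0.03, 0.08 and -0.18.

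No tested gene differed between siRNA 1 and siRNA 2 in edgeR, 0 of 49, beside 0.427% of all genes. An unadjusted p below 0.05 was found for 3 of them, ADAM10, ADAM12 and ADAMTS17, and DESeq2 also called 0. For ADAM12 siRNA 1 minus siRNA 2 was -0.40 (95% interval -0.65 to -0.15), with 99.4 and 108 CPM for siRNA 1 and 125 and 149 CPM for siRNA 2.

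The responses of both arms were compared by an interaction term, the mean NRAS siRNA response minus the ERK inhibitor response. It passed for 7 of 49 genes (14.3%, beside 7.30% of all genes tested), 6 with a lower and 1 with a higher response to the siRNAs. The 6 were ADAM19 at -0.94 (SE 0.18, edgeR adjusted p = 0.0153), MMP2 at -0.74 (SE 0.14, adjusted p = 0.0169), ADAMTS2 at -0.90 (SE 0.18, adjusted p = 0.0195), ADAMTS7 at -1.31 (SE 0.31, adjusted p = 0.0330), ADAMTS10 at -1.75 (SE 0.43, adjusted p = 0.0370) and ADAMTS6 at -1.06 (SE 0.28, adjusted p = 0.0467). MMP1 was higher at 1.75 (SE 0.43, edgeR adjusted p = 0.0372). For 6 of these genes the siRNA response did not pass while the inhibitor response did. ADAM19 had called responses of opposite sign. ADAMTS9 and TIMP1, called in both arms, had interactions of -0.42 (SE 0.28, 95% interval -1.05 to 0.21) and 0.23 (SE 0.15, 95% interval -0.12 to 0.57) that did not pass.

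None of the 7 interaction calls held in every fit with 1 library left out. ADAM19 was lost only without DMSO replicate 1 (-0.85, edgeR adjusted p = 0.0612). MMP2 was lost without DMSO replicate 2 or ERK inhibitor replicate 1, with an adjusted p of up to 0.0658 in edgeR. ADAMTS2 was lost in 3 such fits, without replicate 1 of the nonspecific siRNA, DMSO replicate 2 or ERK inhibitor replicate 1. ADAMTS7, ADAMTS10, MMP1 and ADAMTS6 were lost in 7, 7, 8 and 9 fits. The count of 7 was 1 without DMSO replicate 2 or ERK inhibitor replicate 1, 2 without replicate 1 of the nonspecific siRNA, 3 without siRNA 1 replicate 2, siRNA 2 replicate 1 or DMSO replicate 1, and 4 without siRNA 2 replicate 2. The arms differ in transfection and in time, 48 h against 24 h, as well as in the target, and these cannot be told apart.

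The 2 control groups were not alike for every gene. Between the nonspecific siRNA and DMSO 2 of 49 genes passed, 4.08% beside 0.379% of all genes, and both were ADAMs that moved in the treated groups. ADAM19 was higher with the nonspecific siRNA by 1.01 (SE 0.14, edgeR adjusted p = 0.0239) and ADAM12 by 0.75 (SE 0.11, adjusted p = 0.0270), with 132 and 125 CPM of ADAM12 against 78.4 and 74.2 CPM with DMSO. ADAM19 thus stood at 82.8 and 95.1 CPM in one control and 41.5 and 46.7 CPM in the other, so that its opposite responses began from different levels and ended at 53.6 to 75.9 CPM with the siRNAs and 57.8 and 64.7 CPM with the inhibitor. Each call was lost without any 1 of the 4 libraries compared, at 0.91 to 1.11 for ADAM19 and 0.71 to 0.79 for ADAM12. ADAM12 was also lost without siRNA 1 replicate 2 or either ERK inhibitor library, and in a fit of only the groups compared (edgeR adjusted p = 0.0774).

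Genes around these proteases were followed in lists by role, to be read beside the shares over all tested genes. With the ERK inhibitor 13.2% of all genes rose and 14.8% fell. With the mean of both NRAS siRNAs 2.97% rose and 4.99% fell. Among relatives of the metzincins and ADAMTS-like proteins, 6 of 10 tested genes rose and 1 fell with the ERK inhibitor (median log2 fold change 0.69). TLL1, a procollagen C-proteinase of the tolloid group, rose from 1.80 and 1.29 to 9.78 and 15.4 CPM (3.03, SE 0.27), and the matrix proteins ADAMTSL1 and ADAMTSL2 rose by 2.78 (SE 0.32) and 2.24 (SE 0.30). PAPPA, a protease of IGF-binding proteins, fell by 1.57 (SE 0.22). With the NRAS siRNAs TLL1 rose by 0.97 (SE 0.26, edgeR adjusted p = 0.0476), the only call of 10. A list of other protease inhibitors also held PCOLCE and PCOLCE2, which are enhancers of procollagen C-proteinase. Of its 8 tested genes 2 rose and 3 fell with the ERK inhibitor. A2M, a broad protease trap, was at 1.30 (SE 0.43) and TFPI2, a Kunitz-type inhibitor, at -1.17 (SE 0.22). With the siRNAs 0 of 8 passed in edgeR.

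Activators of these proteases, such as the plasminogen system, furin and the iRhom proteins that escort ADAM17, gave 4 rises and 4 falls among 16 tested genes with the inhibitor, and 0 rises and 5 falls with the siRNAs. PLAU, the urokinase that generates plasmin, stood at 84.2 and 124 CPM with DMSO and 24.7 and 29.2 CPM with the inhibitor (-1.95, SE 0.32, edgeR adjusted p = 0.00170). With the siRNAs it was at 119 and 167 CPM in controls and 45.3 to 84.4 CPM in the 4 others (-1.12, SE 0.25, edgeR adjusted p = 0.0283). Its receptor PLAUR was at -0.99 (SE 0.18) and -1.07 (SE 0.15) in the respective arms, both called. FURIN, which activates MMP14 and ADAM precursors, fell with the siRNAs by 0.49 (SE 0.09) and RHBDF2, encoding iRhom2, by 0.48 (SE 0.12), but neither passed with the inhibitor, at 0.22 and -0.35.

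Substrates were also measured. Of 20 tested shedding substrates 4 rose and 5 fell with the inhibitor, and 3 rose and 5 fell with the siRNAs. TGFA, an EGF receptor ligand shed by ADAM17, went from 94.1 and 106 to 12.8 and 10.4 CPM with the inhibitor (-3.11, SE 0.22) and fell by 1.06 (SE 0.17) with the siRNAs. The adhesion receptor VCAM1 rose in both arms, by 2.70 (SE 0.41) and 2.19 (SE 0.34). Of 18 tested matrix substrates 8 rose and 3 fell with the inhibitor (median 0.54), and 2 rose and 4 fell with the siRNAs (median -0.11). FBN2 and FBN1, the fibrillins of microfibrils, rose with the inhibitor by 1.99 (SE 0.14) and 1.95 (SE 0.13) and with the siRNAs by 1.09 (SE 0.12) and 0.59 (SE 0.11). COL5A1, a chain of a fibril-forming collagen, rose by 1.98 (SE 0.12) with the inhibitor and did not pass with the siRNAs, at 0.15 (SE 0.10). Decorin (DCN), a small collagen-binding proteoglycan, had 2 and 0 counts with DMSO and 140 and 179 with the inhibitor.

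Of 14 AP-1 and ETS factor genes 3 rose and 5 fell with the ERK inhibitor. ETV4, an ETS factor of the PEA3 group, went from 259 and 269 CPM to 7.34 and 4.61 CPM (-5.47, SE 0.24, edgeR adjusted p = 1.48e-06). ETV5 of the same group was at -3.83 (SE 0.17), and the AP-1 subunits FOSL1 and FOS at -3.42 (SE 0.69) and -1.69 (SE 0.23). Other factors lay higher with the inhibitor. ETS1 was at 182 and 240 CPM with DMSO and 349 and 453 CPM with the inhibitor, and JUND at 55.2 and 48.1 against 140 and 87.0 CPM. With the siRNAs 0 rose and 3 fell, ETV4 by 0.90 (SE 0.16), FOS by 0.92 (SE 0.18) and JUNB by 1.02 (SE 0.22). Promoters were searched for the letters of sites such factors bind, TGANTCA for AP-1 and AGGAAG for PEA3, on both strands of the 300 bases from 250 before to 50 after each start (RefSeq, GRCh38.p14). Of the 67 genes 38 had such a window, ADAMTS10 with 2, which made 39 windows. The AP-1 letters were in 4 of the 39 (10.3%, beside 7.71% of all 35116 promoters), those of ADAMTS12, MMP7, MMP10 and MMP20, and the PEA3 letters in 10 (25.6%, beside 33.6%). Among the 9 genes with a window that changed with the inhibitor, 0 held the AP-1 letters. ADAM12, ADAMTS10 (in 1 of its 2 windows), ADAMTS13 and TIMP1 held the PEA3 letters. The other genes that changed, MMP1, MMP2, MMP12, MMP28, ADAMTS4, ADAMTS9, ADAMTS15, ADAM33 and TIMP2, had no window and were not searched. Sites that differ from these exact letters were not counted. The window around the match of TIMP1, which fell in both arms, is shown with the match in capitals.
TIMP1 (chrX:47582338-47582365, plus strand): gtaatgcatccAGGAAGcctggaggcct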

How the data were processed

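RNA from 10 RD libraries, prepared as stranded mRNA libraries per the labels' protocols, was measured in 5 groups of 2, assigned by title. The deposited values are raw read counts per gene symbol. Per the submitters' processing notes the tools were bcl2fastq, TopHat2, SAMtools and HTSeq on hg19 (GRCh37). The sources used here give no versions, annotation or strand setting. The 5 lines per file that name no gene, 38.3 to 39.4% of reads, were left out, and 27.0 to 28.9% of reads aligned to several places, which lowers counts of genes with near-identical copies. CPM values were scaled with TMM factors. CPM per kb used exon unions of GENCODE v29, a later build, matched by symbol.

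Tests used edgeR 4.0.16 (R 4.3.3), glmQLFit and glmQLFTest, on all 10 libraries in 1 fit with filterByExpr at a minimum count of 10, 5 residual degrees of freedom and Benjamini-Hochberg adjustment over 14761 genes, at a threshold of 0.05. The common biological coefficient of variation was 0.115. Replicates of a group had r of 0.990 to 0.993 across genes, and chi-square values of 13.2 to 25.5 times the degrees of freedom, so each library counted once. Intervals are at 95% and, for count ratios, exact. Standard errors of log2 fold changes were derived as the absolute value over the square root of edgeR's F statistic. The intervals of log2 fold changes used these standard errors with 10.1 total degrees of freedom. Alternatives were RLE and upper-quartile scaling, DESeq2 1.42.0, no filter, fits of only the groups compared, a replicate block and leaving out each library. The tests were also run on simulated data. Values per library were given for every gene called in a comparison, the 4 TIMPs where tested, MMP2, MMP14, ADAM10, ADAM17 and the 5 genes of highest level per kb, others as ranges, and up to 4 called genes per neighbouring list. Genes and lists were chosen with earlier results of these data known. The zinc site was searched in coding sequences of the GENCODE v29 transcripts.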

Additional observations from a re-analysis of the deposited data

How the results depend on the processing

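With 2 libraries a group, precision is limited by replicate number more than by depth, except for genes with few counts such as MMP9, MMP12, MMP28 and ADAMTS4. The ERK inhibitor count of 18 was 19 with RLE factors, 18 with upper-quartile scaling, 19 with DESeq2, 20 without the filter, 19 with only the groups compared and 22 with the replicate block, and 9 to 20 with 1 library left out. The mean NRAS siRNA count of 4 was 2 with only the groups compared and 1 to 4 with 1 library left out. For siRNA 1 the count of 2 was 1 with only the groups compared and 1 to 2 with 1 library left out. For siRNA 2 the count of 3 was 5 with DESeq2, 5 without the filter, 1 with only the groups compared and 1 to 3 with 1 library left out. The interaction count of 7 was 11 without the filter and 1 to 7 with 1 library left out. The count of 2 between the control groups was 1 with only the groups compared and 0 to 2 with 1 library left out. Where a group kept 1 library, its spread was taken from the other groups. The cause of these shifts was not tested. The smaller fits also held fewer samples.

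Over all genes, the mean NRAS siRNA count of 1174 was 425 with only the groups compared, 1765 without the filter and 131 to 1491 with 1 library left out. For siRNA 1, 305 became 763 with DESeq2, 785 without the filter, 45 with only the groups compared and 28 to 374 with 1 library left out. For siRNA 2, 949 became 1651, 1690, 225 and 53 to 1144 in the same order. The ERK inhibitor count of 4128 was 1875 to 4392 with 1 library left out, the interaction count of 1078 was 1596 without the filter and 343 to 915 with 1 library left out. For siRNA 1 against siRNA 2, 63 became 144 with DESeq2, 28 with only the groups compared and 6 to 54. Between the control groups, 56 became 370 with DESeq2, 283 without the filter, 12 with only the groups compared and 6 to 31.

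The replicate block pairs libraries by number, which the labels do not tie to a shared culture or day. Deviations of same-numbered libraries correlated at 0.0737 to 0.448 over 10 pairs of groups. With the block the counts were 8 for the mean of both siRNAs, 4 for siRNA 1, 8 for siRNA 2, 17 for the interaction and 4 between the control groups, and over all genes 2846, 1280, 2815, 2379 and 446, with 120 for siRNA 1 against siRNA 2. For the ERK inhibitor the count over all genes was 4128 without the block and 5648 with it. MMP11, ADAMTS2 and TIMP3 then passed with the siRNAs (adjusted p = 0.0114, 0.0205 and 0.0338) and ADAM9 with the inhibitor (0.0124).

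Directions reversed only with 1 library left out and only for values that had not passed. Log2 fold changes then ranged, with the ERK inhibitor, from -0.093 to 0.31 for ADAM10 and -0.062 to 0.18 for ADAM17. With the mean of both siRNAs they ranged from -0.20 to 0.35 for ADAM10, -0.030 to 0.61 for ADAM33, -0.36 to 0.050 for ADAM9, -0.16 to 0.59 for ADAMTS10, -0.079 to 0.59 for ADAMTS13, -0.36 to 0.43 for MMP12 and -0.029 to 0.18 for TIMP2.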

Other observations

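Libraries that carry the same replicate number differed in the same way for some of these genes. In all 5 groups the library numbered 1 was higher than the library numbered 2 for 7 of the 49 tested genes, namely MMP11, ADAM33, ADAMTS3, ADAMTS4, ADAMTS7, ADAMTS10 and ADAMTS13. It was lower in all 5 for 7 others, namely MMP3, MMP10, ADAM19, ADAM32, ADAMTS15, ADAMTS16 and ADAMTS17. Together these are 28.6% of the tested genes, beside 23.3% of all 14761, so the pattern was not limited to these families. The main tests did not take the replicate number into account. For MMP11 the libraries numbered 1 and 2 stood at 29.8 and 14.9 CPM with the nonspecific siRNA, 33.2 and 20.3 with siRNA 1, 46.7 and 33.6 with siRNA 2, 27.8 and 16.5 with DMSO and 86.3 and 65.8 with the ERK inhibitor. For ADAMTS10 the log2 difference between them was 0.31 to 0.71, and for ADAM19 the library numbered 2 was higher by 0.16 to 0.28. What the numbers stand for is not given in the labels, and the reason for the pattern was not tested.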
